A study of Xenopus tropicalis with 13 samples.

Results

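The enzymes described here were aldoa, gpi, pgam2, pygm and got2, 5 of the 3270 genes named in the deposited expression and bin tables of a study of Taf15, an RNA-binding protein, in the western clawed frog Xenopus tropicalis. They were taken by name from these tables, and earlier results of the same tables were known when they were chosen, so their listed changes are descriptions and carry no test. RNA was sequenced from 13 single whole embryos with no stated genetic alteration. At stage 10, the start of gastrulation, there were 3 uninjected embryos and 3 embryos injected with an antisense morpholino oligonucleotide (MO). At stage 15, the neurula, there were 4 uninjected and 3 MO-injected embryos. The series describes translation-blocking, splice-blocking and mismatch oligonucleotides and mutants, and the titles of all MO-injected embryos carry the code trns1MO (in part written taf15Trns1MO), which the labels do not explain. All controls among these 13 were uninjected, so injection itself and loss of Taf15 cannot be told apart. A whole embryo mixes all cell types, and fewer cells of a type and less RNA per cell cannot be told apart in it.

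Glycolysis splits glucose into pyruvate. Gpi converts glucose-6-phosphate to fructose-6-phosphate, aldolase A (aldoa) cleaves fructose-1,6-bisphosphate, and phosphoglycerate mutase 2 (pgam2), the muscle form in mammals, converts 3-phosphoglycerate to 2-phosphoglycerate. Glycogen phosphorylase (pygm, named after the muscle form of mammals) releases glucose-1-phosphate from stored glycogen and so feeds the same pathway. Got2, the mitochondrial aspartate aminotransferase, is not a glycolytic or glycogen enzyme. It belongs to the malate-aspartate shuttle, which carries the reducing power of cytosolic NADH into mitochondria.

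The deposited tables list only items past the authors' threshold, an adjusted p of 0.1, and at stage 15 also a change of at least 2-fold for expression. A member that is absent from a list was therefore not shown to be unchanged. For expression, aldoa, gpi and got2 were listed at both stages, pgam2 at stage 15 and not at stage 10, and pygm at neither. For bins, the segments into which the authors cut each gene, aldoa and pygm had listed bins at both stages, and gpi, pgam2 and got2 had none. The table of retained introns names pygm alone of the 5. Bin counts are given per embryo, whereas the expression tables hold no values per embryo, so no embryo's level of gpi, got2 or pgam2 can be shown.

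Of the 5 enzymes, gpi and got2 rose in MO-injected embryos at both stages, and aldoa fell at both. At stage 15 pgam2 fell further than any other member. At stage 10, 3 members were listed, 2 as higher and 1 as lower, where 2.19% of at least 13317 genes tested were listed, 0.954% as higher and 1.24% as lower. At stage 15, 4 members were listed, 2 as higher and 2 as lower, where 13.2% of at least 15850 genes tested were listed, 5.96% as higher and 7.26% as lower. Since the members were picked from these lists, nothing is read from these shares.

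Of the members, got2 increased most. In the authors' deposited table its log2 fold change at stage 10 was 1.0 (SE 0.221, adjusted p = 0.00131), with a 95% interval of 0.57 to 1.43 computed from the SE. At stage 15 the authors' deposited table gave 1.98 (SE 0.212, adjusted p = 3.27e-18), an interval of 1.57 to 2.40 and a 3.95-fold increase. By p-value it stood at place 62 of 292 listed genes at stage 10 and at place 35 of 2094 at stage 15. Its mean normalised count over all embryos, as deposited by the authors, was 960.2.

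Gpi moved in the same direction as got2 by less. Its log2 fold change in the authors' deposited table was 0.59 at stage 10 (SE 0.177, adjusted p = 0.0550), which lies inside the authors' threshold and outside a threshold of 0.05. At stage 15 the authors' deposited table gave 1.44 (SE 0.206, adjusted p = 2.65e-10), a 2.71-fold increase. The 95% intervals were 0.24 to 0.93 and 1.03 to 1.84. The mean normalised count that the authors deposited was 521.1. The change between stages was not tested for any member, because the rule that chose them used both contrasts.

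Aldoa went the other way. The authors' deposited table gave a log2 fold change of -0.77 at stage 10 (SE 0.172, adjusted p = 0.00174) and of -1.42 at stage 15 (SE 0.161, adjusted p = 3.65e-16), decreases of 1.70-fold and 2.68-fold. The 95% intervals were -1.1 to -0.43 and -1.74 to -1.11. With a mean normalised count of 2244 in the authors' deposited table, it ranked at place 50 of 2094 by p-value at stage 15. In size its decrease was ordinary among listed genes, at place 703 of 1150 lower genes.

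Pgam2 had the largest decrease of the members and the widest error. The authors' deposited table gave a log2 fold change of -4.35 at stage 15 (SE 0.920, adjusted p = 4.86e-05), a 20.4-fold decrease with a 95% interval of -6.15 to -2.55 on the log2 scale. It was the 36th largest of 1150 decreases, but stood at place 625 of 2094 by p-value. Its mean normalised count in the authors' deposited table was 191.8 over embryos of both stages. RefSeq gives pgam1 as another name of this gene and also holds a separate pgam1, so reads may have been shared between copies, which was not tested.

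**Figure D1:**
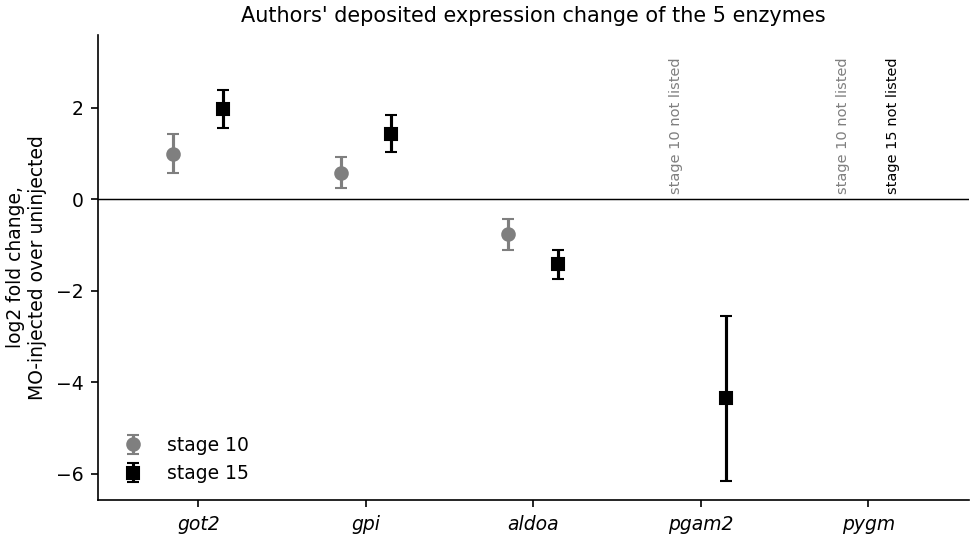
The authors' deposited log2 fold change (MO-injected over uninjected) of each enzyme at stage 10 (grey circles) and stage 15 (black squares), with bars of the 95% interval from the deposited SE. Got2 and gpi lie above 0 and aldoa below 0 at both stages, pgam2 lies at -4.35 at stage 15, and absent entries are written as not listed.

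The headers of the expression tables state no direction, so the sign was read from the bin counts, whose columns name the groups. Across genes present in both kinds of table, the deposited log2 fold change and the log2 ratio of raw bin counts had a Spearman correlation of 0.71 over 11 genes at stage 10 and of 0.69 over 169 genes at stage 15. Without aldoa the values were 0.68 and 0.69. These are descriptions across genes whose bins were selected, and genes are not independent replicates.

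Pygm, absent from both expression lists, had 3 listed bins at stage 10, E024, E025 and E026, and 2 of these, E025 and E026, at stage 15. All were used more in MO-injected embryos. The 3 bins adjoin each other on the plus strand of scaffold_5, from position 87551179 to 87551816, a stretch of 638 bases (genome build: not given in the sources used here). E024 is 459 bases long, E025 121 and E026 58. In the bin table of stage 10, E024 belongs to 3 assembled transcripts, E025 to 2 and E026 to 1. The authors' deposited table of intron retention, which covers the 10 named genes with the smallest adjusted p at each stage, gives pygm in the 4th place at stage 10 with 3 retained introns, placed throughout the 19th intron. That table does not explain how 3 introns can lie in 1, and it does not name pygm at stage 15.

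The counts of E024 at stage 10 were 359, 473 and 325 raw reads in the 3 MO-injected embryos and 82, 32 and 49 in the 3 uninjected embryos. Every MO-injected embryo was above every uninjected one. The means were 385.7 ± 77.5 (SD, n = 3) and 54.3 ± 25.4 (SD, n = 3), a raw ratio of 7.04-fold with a pseudocount of 0.5. E024 had the 4th highest mean count of the 228 listed bins. The authors' deposited usage scores of 30.4 and 11.1, which come from a fit relative to the gene and on a scale not stated, differ by 2.75-fold (adjusted p = 5.20e-28).

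For E025, the bin with the smallest p of the 3, the stage 10 counts were 221, 213 and 153 in MO-injected and 33, 25 and 24 in uninjected embryos. The groups were again far apart, with means of 195.7 ± 37.2 (SD, n = 3) and 27.3 ± 4.93 (SD, n = 3), and a raw ratio of 7.05-fold. The usage ratio in the authors' deposited table was 2.83-fold (adjusted p = 1.45e-50), the 5th smallest p of the 228 listed bins. At stage 15, E025 had 100, 100 and 134 reads in MO-injected embryos and 27, 17, 37 and 28 in uninjected embryos. The groups did not overlap at this stage either, with means of 111.3 ± 19.6 (SD, n = 3) and 27.3 ± 8.18 (SD, n = 4), a 4.03-fold raw ratio and a usage ratio of 2.18-fold in the authors' deposited table (adjusted p = 3.58e-44).

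E026 followed the same pattern. At stage 10 it had 201, 170 and 134 reads in MO-injected and 30, 17 and 17 in uninjected embryos, a raw ratio of 7.73-fold and a usage ratio of 2.99-fold in the authors' deposited table (adjusted p = 8.27e-32). At stage 15 the counts were 84, 110 and 99 in MO-injected and 17, 19, 24 and 32 in uninjected embryos, a raw ratio of 4.18-fold and a usage ratio of 2.25-fold in the authors' deposited table (adjusted p = 6.74e-21). At both stages every MO-injected embryo was above every uninjected one. E024 was not listed at stage 15 and its counts at that stage are not analysed here.

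**Figure D2:**
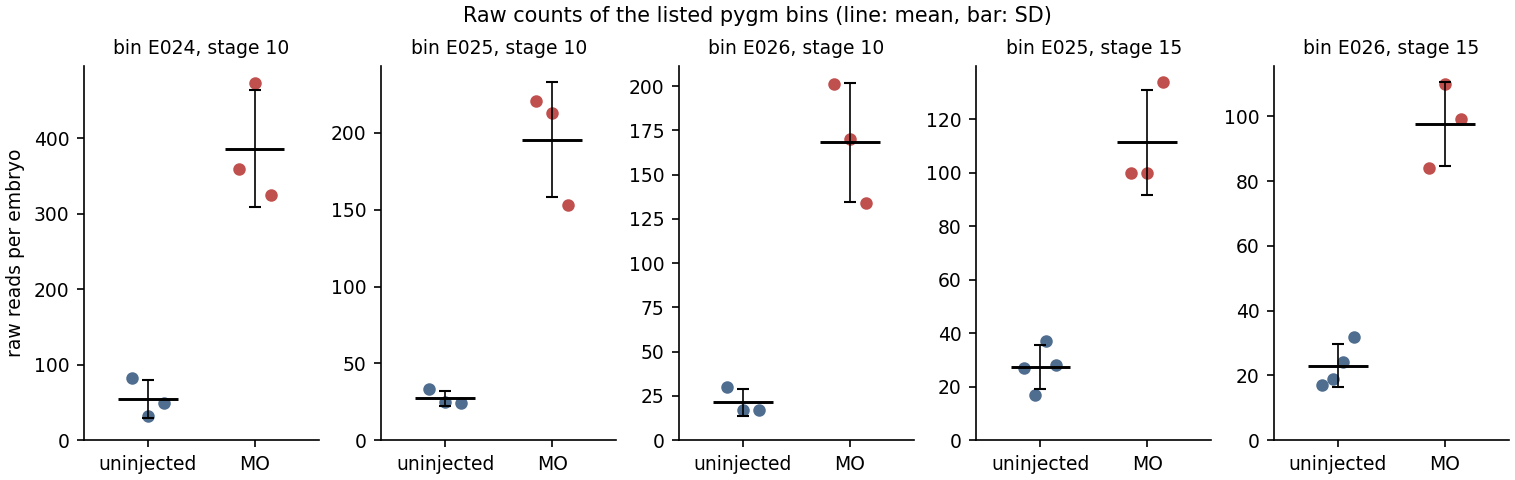
Raw reads per embryo in the listed pygm bins (points), with the group mean (line) and SD (bar), for uninjected and MO-injected embryos. In all 5 panels the lowest MO-injected embryo is above the highest uninjected embryo.

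The adjoining pygm bins had similar proportions to each other in both groups. At stage 10 the summed count of E024 was 1.97 times that of E025 in MO-injected embryos and 1.99 times in uninjected embryos. Within single embryos this ratio ranged from 1.62 to 2.22 in the MO-injected and from 1.28 to 2.48 in the uninjected group. The summed count of E026 was 0.860 and 0.780 times that of E025 in MO-injected and uninjected embryos at stage 10, and 0.877 and 0.844 times at stage 15. Within single embryos the last ratio ranged from 0.739 to 1.1 in the MO-injected and from 0.630 to 1.14 in the uninjected group at stage 15, so the groups overlapped. Per 100 bases, the mean raw count at stage 10 in MO-injected embryos was 84.0 in E024, 162 in E025 and 290.2 in E026, and 11.8, 22.6 and 36.8 in uninjected embryos. The shorter the bin, the higher was this density in both groups. The sources used here do not say whether a read that spans a border was counted in both bins.

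Aldoa had 3 adjoining bins in the lists, E005 (319 bases), E006 (7 bases) and E007 (163 bases), on the plus strand of scaffold_750 from position 10231 to 10719, 489 bases in all (again with no build stated). E005 and E007 were listed at stage 10 and E006 and E007 at stage 15. Their use rose at both stages while the gene's expression fell. Use is fitted relative to the gene, so its rise does not by itself show more reads in a bin. At stage 15 the gene fell 2.68-fold, and use rose 2.29-fold in E006 and 2.05-fold in E007 in the authors' deposited tables. Whether these bins rose apart from the fall of the gene was not tested. Genes with both a listed bin and a listed expression change numbered 11 at stage 10 and 169 at stage 15, aldoa included. Of these, 6 and 118 were lower in expression. Over all listed genes, 165 of 292 were lower at stage 10 and 1150 of 2094 at stage 15. The stage 10 share is near that of all listed genes, and the difference at stage 15 was not tested. In the bin table of stage 10, E005 and E007 each belong to 1 assembled transcript. The bins hold a small number of reads beside the gene as a whole, whose mean normalised count was 2244 in the authors' deposited table, against mean raw counts of 4.67 to 38.3 per bin. These scales differ, one being scaled by size factors and the other not.

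At stage 10, E005 had 29, 28 and 32 raw reads in MO-injected embryos and 9, 13 and 7 in uninjected embryos. The groups did not overlap. The means were 29.7 ± 2.08 (SD, n = 3) and 9.67 ± 3.06 (SD, n = 3), a raw ratio of 2.97-fold and a usage ratio of 2.06-fold in the authors' deposited table (adjusted p = 1.34e-07). E007 had 10, 6 and 9 reads in MO-injected and 1, 0 and 2 in uninjected embryos at stage 10. These groups did not overlap either, but the counts are low, and the usage ratio in the authors' deposited table was 3.42-fold (adjusted p = 0.00191).

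The same bin E007 was less separated at stage 15, where the embryos' titles follow 2 naming styles. Both styles hold uninjected and MO-injected embryos, and values within each cannot be given because the count columns are not tied to embryos. It had 37, 33 and 77 reads in MO-injected embryos and 19, 28, 39 and 35 in uninjected embryos, so that the highest 2 uninjected embryos lay above the lowest MO-injected one. The means were 49.0 ± 24.3 (SD, n = 3) and 30.3 ± 8.77 (SD, n = 4), a difference of raw means within 1 SD of the MO-injected group. The raw ratio was 1.61-fold, and 1.15-fold without the MO-injected embryo that had 77 reads. The usage ratio in the authors' deposited table was 2.05-fold (adjusted p = 0.000362). E006, only 7 bases long, had 17, 10 and 34 reads in MO-injected and 6, 7, 18 and 12 in uninjected embryos at stage 15. These groups overlapped as well, the raw ratio was 1.85-fold, and the usage ratio in the authors' deposited table was 2.29-fold (adjusted p = 0.0116). Without the MO-injected embryo that had 34 reads the raw ratio of E006 was 1.24-fold.

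**Figure D3:**
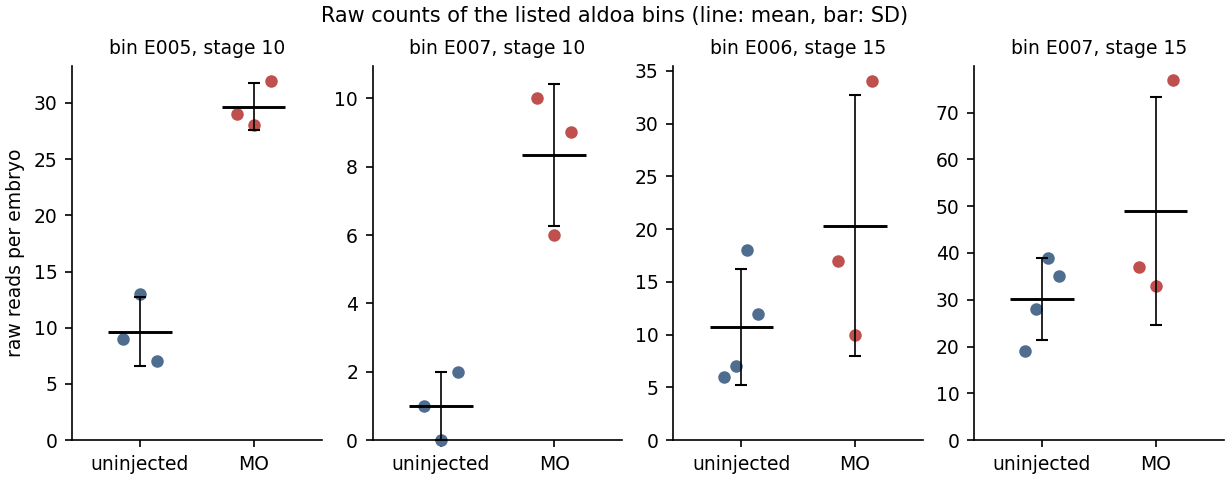
Raw reads per embryo in the listed aldoa bins (points), with the group mean (line) and SD (bar). The groups are apart for E005 and E007 at stage 10 and overlap for E006 and E007 at stage 15, where 1 MO-injected embryo has the highest count of both bins.

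Of the bins of the 2 genes, all 5 listed at stage 10 and 2 of 4 at stage 15 had groups that did not overlap, against 97.4% of the 228 and 75.5% of the 1429 listed bins. The lists hold 0.141% of at least 161758 bins tested at stage 10 and 0.747% of at least 191386 at stage 15. In 222 listed bins at stage 10 and 1079 at stage 15 every MO-injected embryo was above every uninjected one. Nothing is therefore read from the members' direction. By raw ratio the pygm bins were near the middle of the stage 10 list (log2 ratios of 2.82, 2.82 and 2.95, where the median of all listed bins was 3.04) and below the median of 2.72 at stage 15 (2.01 and 2.06). The aldoa bins lay lower, with log2 ratios of 1.57 and 2.56 at stage 10 and 0.89 and 0.69 at stage 15. In depth the pygm bins stood above most others, since the median of the mean raw count was 7.75 reads over listed bins at stage 10 and 6.86 at stage 15, against 63.3 for E025 at stage 15. Bins E025 and E026 of pygm and E007 of aldoa were among 108 bins listed at both stages. Runs of 3 or more adjoining listed bins, as in pygm at stage 10, were found in 4 of 192 genes at that stage and in 20 of 1046 at stage 15. Aldoa was 1 of 3 genes found in both expression lists and both bin lists, and 1 of 2 of these that were lower at both stages.

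**Figure D4:**
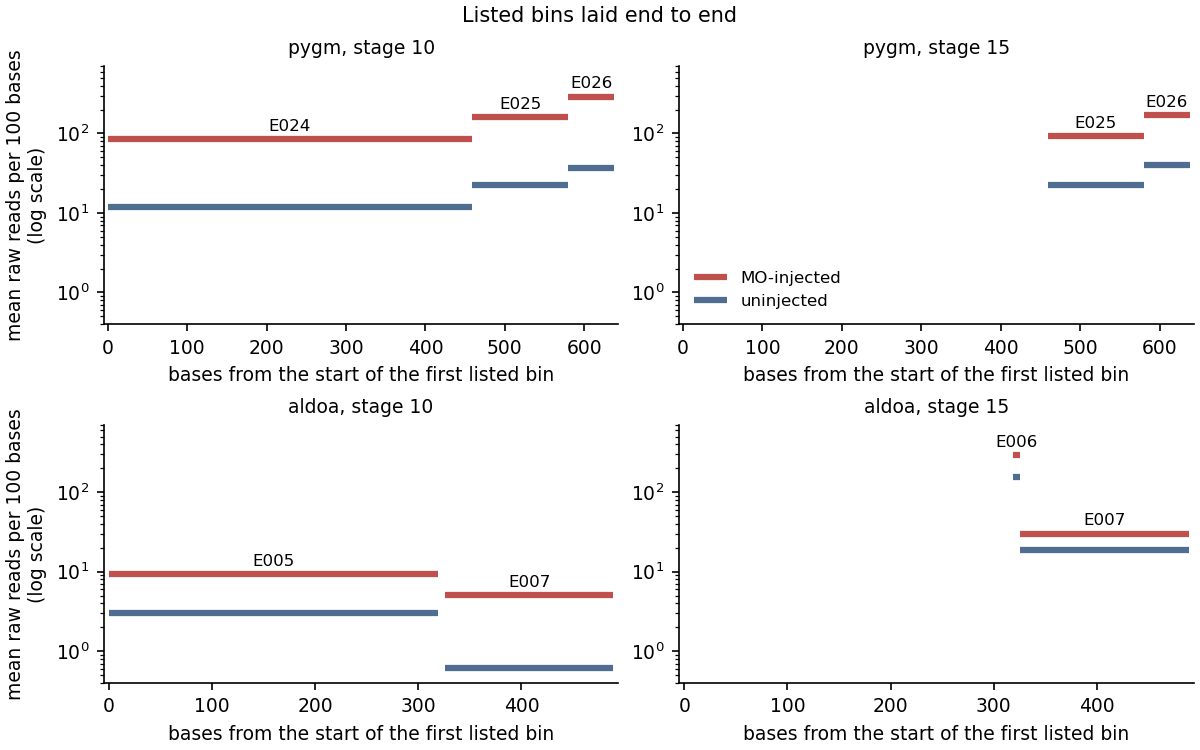
Mean raw reads per 100 bases (log scale) of each listed bin against its distance in bases from the start of the gene's first listed bin, for MO-injected (red) and uninjected (blue) embryos. In pygm the lines of both groups step up together from E024 to E026 at stage 10. In aldoa the gap between groups is narrower at stage 15 than at stage 10.

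Other enzymes around the members were taken from 8 lists of carbohydrate and mitochondrial metabolism with 173 symbols, of which 151 are RefSeq symbols of this frog. Without the 5 members, 4 of 168 symbols were listed for expression at stage 10, 1 higher and 3 lower, and 22 at stage 15, 10 higher and 12 lower. These are 2.38% and 13.1% of the symbols, near the 2.19% and 13.2% (upper bounds) of all genes tested that were listed. Only 146 of the 168 are RefSeq symbols, so the shares of genes that could be listed may be higher. Over all listed genes 43.5% were higher at stage 10 and 45.1% at stage 15. The median log2 fold change of the listed genes of the lists, members included, was -0.71 at stage 10 and -1.19 at stage 15, beside -0.60 and -1.07 over all listed genes.

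Along glycolysis itself, 3 of 27 symbols (11.1%) were listed by exact match at stage 10 (1 higher, 2 lower) and 6 (22.2%) at stage 15 (2 higher, 4 lower). Over all genes tested the shares were 2.19% and 13.2%. These counts include the members gpi and aldoa at both stages and pgam2 at stage 15, which were picked from the same lists. Nothing is therefore read from the higher shares. Besides gpi, hexokinase 2 (hk2), which traps glucose in the cell, rose at stage 15 with a log2 fold change of 1.2 in the authors' deposited table (SE 0.297). Below gpi in the pathway, the phosphofructokinase gene pfkp (-1.77, SE 0.161), the aldolase gene aldoc (-1.23, SE 0.197), aldoa and pgam2 fell at stage 15 in the authors' deposited table. The glyceraldehyde-3-phosphate dehydrogenase gene gapdh fell at stage 10 (-1.21, SE 0.320) in the authors' deposited table and was not listed at stage 15. At stage 15, by exact symbol, the 2 listed genes that act before phosphofructokinase were higher and the 4 listed from it onward were lower. The other 21 symbols had no exact match, and only 22 of the 27 are RefSeq symbols. Matching by RefSeq synonyms added pkm2, which was lower at stage 15 (-1.1, SE 0.180) in the authors' deposited table. The division at phosphofructokinase was not planned, and gpi, aldoa and pgam2 were picked from the same expression lists, so nothing is read from it. A bin of hk1, E003, had at most 4 reads in any embryo.

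Of 31 symbols of glycogen metabolism, none was listed by exact match for expression at stage 10, and 2 were at stage 15. Those 2 are 6.45% of the symbols, beside 13.2% of all genes tested. Pygl, the liver form of glycogen phosphorylase, had a log2 fold change of 1.21 in the authors' deposited table (SE 0.411, adjusted p = 0.0193). Phkg1, a catalytic subunit of the kinase that activates glycogen phosphorylase, was at -4.35 (SE 0.757) in the authors' deposited table, on a mean normalised count of 19.1. Matching by RefSeq synonyms added ppp1r3c.2, higher at stage 15 in the authors' deposited table (1.72, SE 0.191, adjusted p = 8.12e-17). Bins of gsk3b at stage 10 and of the glycogenin gene gyg2 at stage 15 were also listed. The gsk3b bin had 7, 5 and 10 reads in MO-injected and 1, 0 and 0 in uninjected embryos, and that of gyg2 had at most 5 reads in any embryo.

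Got2 had 2 partners of the malate-aspartate shuttle beside it at stage 15. The mitochondrial malate dehydrogenase gene mdh2 rose, with a log2 fold change of 1.77 in the authors' deposited table (SE 0.251, adjusted p = 1.66e-10). The cytosolic aspartate aminotransferase gene got1 rose as well, by 1.27 in the authors' deposited log2 values (SE 0.326, adjusted p = 0.00117). Of the 15 genes of the shuttle and transamination list, 4 were listed at stage 15, 3 higher and 1 lower, the last being the alanine aminotransferase gene gpt (-1.15, SE 0.369) in the authors' deposited table. That is 26.7%, beside 13.2% of all genes tested, but it counts got2, a member picked from these lists. At stage 10 got2 alone was listed. Cytosolic malate dehydrogenase (mdh1) and the carriers slc25a11, slc25a12 and slc25a13 were in neither expression list.

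In the pyruvate and tricarboxylic acid cycle list, the succinate dehydrogenase subunit gene sdhd was higher at stage 10 (0.71, SE 0.196) in the authors' deposited table. At stage 15, 4 of the 33 genes (12.1%, beside 13.2% of all genes tested) were listed, 2 higher and 2 lower. Besides mdh2 these were the pyruvate dehydrogenase kinase genes pdk1 (1.39, SE 0.240) and pdk3 (-1.25, SE 0.346) and the isocitrate dehydrogenase subunit gene idh3a (-1.38, SE 0.263) in the authors' deposited table. The gluconeogenesis list has 14 symbols, of which only 5 are RefSeq symbols of this frog. In it the fructose-1,6-bisphosphatase gene fbp2 rose at stage 15, to a log2 fold change of 4.67 in the authors' deposited table (SE 0.573, adjusted p = 7.29e-14). The glucose-6-phosphate transporter gene slc37a4 of the same list had 4 listed bins at stage 15, the one with the highest raw ratio being E005 with 11, 10 and 12 reads in MO-injected and 1, 1, 0 and 1 in uninjected embryos. Of 10 pentose phosphate genes tktl2 alone (10%) was listed at stage 15, as lower (-1.62, SE 0.262) in the authors' deposited table.

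Sugar and lactate carriers went both ways, with 3 of 20 higher and 2 lower at stage 15. Together they are 25% of the symbols, beside 13.2% of all genes tested, and the difference was not tested. Slc2a9 (1.76, SE 0.262), the monocarboxylate carrier slc16a7 (1.23, SE 0.382) and slc2a7 (6.92, SE 1.41) rose in the authors' deposited table. Slc2a11 (-2.46, SE 0.616) and slc2a3 (-4.76, SE 1.42) fell in the authors' deposited table. Mean normalised counts were low for slc2a7 (6.31), slc2a3 (10.1) and slc2a11 (24.1). At stage 10 the authors' deposited table listed slc2a2 as lower (-0.71, SE 0.221, adjusted p = 0.0710), a call that is lost at a threshold of 0.05. Among 24 regulators 16.7% were listed at stage 15, beside 13.2% of all genes tested. Of these, 1 was higher, txnip (1.56, SE 0.306), while 3 fell. By the authors' deposited table those 3 were the oxygen-sensing prolyl hydroxylase gene egln2 (-2.59, SE 0.383) and the AMP-activated kinase subunit genes prkag1 (-3.07, SE 0.487) and prkab2 (-1.43, SE 0.366).

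**Figure D5:**
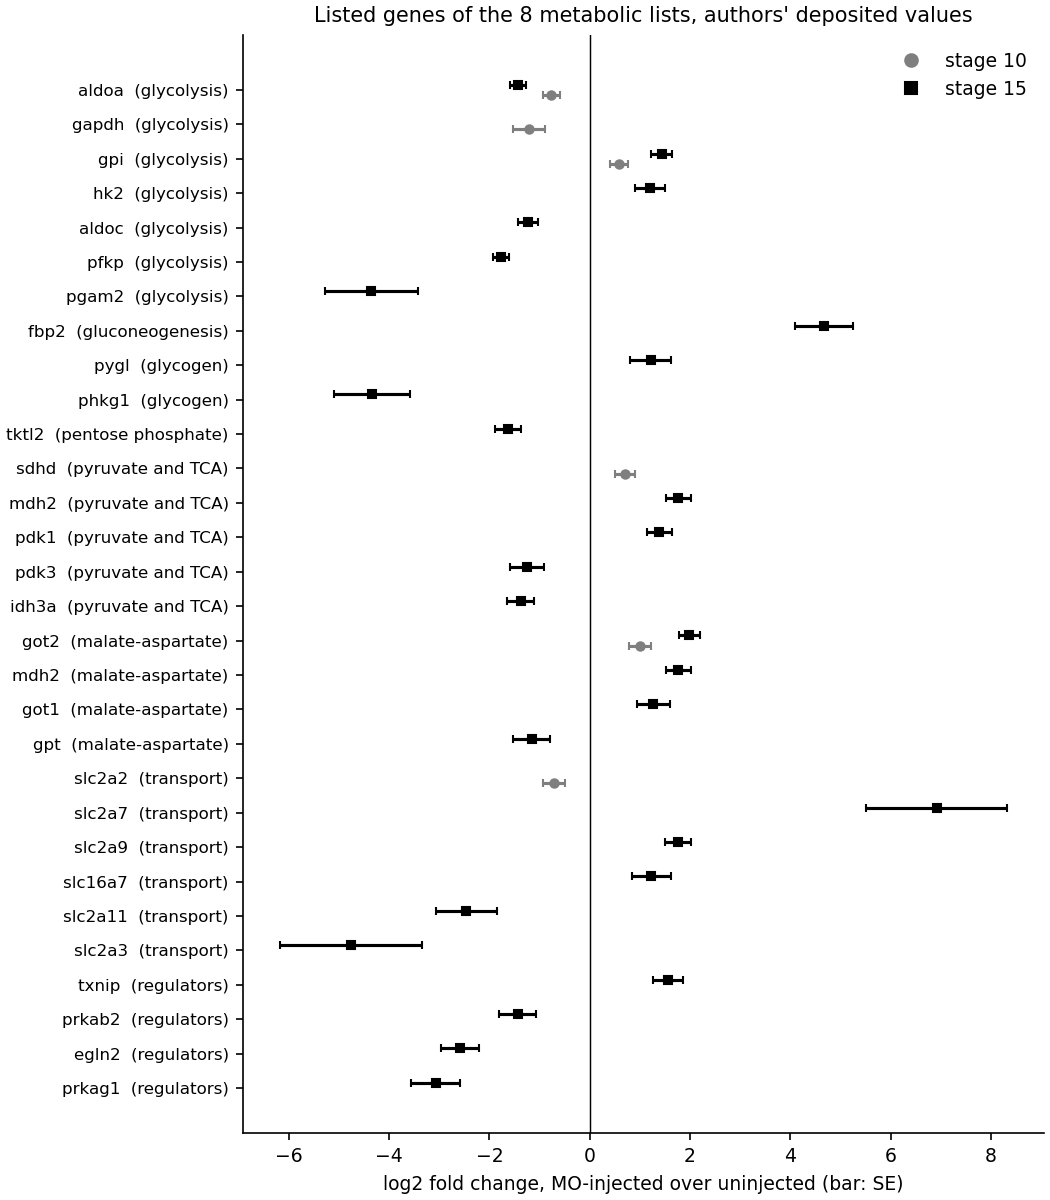
The authors' deposited log2 fold change (bar: SE) of listed genes of the 8 metabolic lists (a gene not reported here is left out) at stage 10 (grey circles) and stage 15 (black squares). Genes of most lists lie on both sides of 0 at stage 15, with 12 higher and 14 lower in all when each gene is counted once.

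Because pgam2 and pygm are muscle forms in mammals, the markers of skeletal muscle were set beside them. RefSeq also gives pygb as another name of the frog gene pygm, and which mammalian form it matches was not tested. At stage 15, 21 of 43 marker genes (48.8%) were listed, 19 lower and 2 higher, where 13.2% of at least 15850 genes tested were listed, 7.26% as lower and 5.96% as higher. Their median log2 fold change was -1.91 in the authors' deposited table. In the authors' deposited table the listed markers with the lowest log2 fold changes were the myosin heavy chain genes myh4 (-7.96, SE 0.379) and myh1 (-4.27, SE 0.841) and the troponin gene tnnc2 (-3.85, SE 0.526). Creatine kinase of muscle (ckm), a marker named after its value was seen, was at -2.21 in the authors' deposited table (SE 0.304). The authors' deposited table listed as higher acta1 (1.73, SE 0.269) and actn2 (1.91, SE 0.808, adjusted p = 0.0742), so that 1 is left at a threshold of 0.05. At stage 10, 1 marker was listed, jph1, which in the authors' deposited tables was at 1.31 (SE 0.197) at stage 10 and at -1.12 (SE 0.208) at stage 15. The summed level of the markers in each embryo cannot be given, as the expression tables hold no values per embryo. The part of muscle in the decreases of pgam2 and aldoa was not tested.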

How the data were processed

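Polyadenylated RNA of 13 single embryos was sequenced. Per the submitters' processing notes, the tools included DESeq2, DESeq, Cuffdiff, Cufflinks, Bowtie and TopHat, without versions. The build, the annotation and the settings: not given in the sources used here. Per the file headers, the authors deposited for each listed gene a mean normalised count (a signal scaled by size factors), a log2 fold change with its SE, a p-value and an adjusted p, and for each listed bin raw counts per embryo, fitted usage scores, a log2 usage ratio (uninjected over MO-injected, turned here) and both kinds of p. Count columns show a group but not which embryo. The stage 15 bin table heads its count columns with stage 10 and its fitted columns with stage 15, and was used as stage 15. An uninjected embryo described as stage 10 but titled stage 15 was taken as stage 15.

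Members and lists were chosen with earlier results of these data known. The genes named were the members, the listed genes of the 8 metabolic lists (except a gene that is not reported here) and the 3 most changed muscle markers, with ckm and the 2 markers listed as higher named after their values were seen. No model was fitted to these selected lists, and all adjusted p-values are the authors'. The 95% intervals are the deposited log2 fold change ± 1.96 SE. Raw ratios divide group means after adding a pseudocount of 0.5 and are not corrected for depth, which is unknown, since library totals are not in the tables used here. Numbers of tests are lower bounds from the Benjamini-Hochberg relation of p and adjusted p, a step tested on simulated data, so percentages of tests are upper bounds. All embryos are separate animals. Alternatives were another pseudocount, medians, scaling by totals over listed bins, the usage ratio, each embryo left out, stricter thresholds, a minimum mean count and synonyms from RefSeq's table for UCB_Xtro_10.0, used only for names. All 5 members matched it. A planned comparison of protein sequences was not run. Python 3.11.15, pandas 2.3.3, numpy 2.4.6, scipy 1.17.1 and matplotlib 3.10.9 were used.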

Additional observations from a re-analysis of the deposited data

How the results depend on the processing

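The bin counts rest on 3 or 4 embryos a group with unknown depth, so a raw ratio near 1, as for aldoa at stage 15, is not separable from a difference in depth. With the authors' usage ratio, the log2 values at stage 10 were 1.46, 1.5 and 1.58 for pygm E024, E025 and E026 and 1.05 for aldoa E005, and at stage 15 1.13 and 1.17 for pygm E025 and E026, all nearer 0 than the raw ratios. It was also nearer 0 for aldoa E007 at stage 10 (1.77 against 2.56), and farther from 0 for aldoa E006 (1.2 against 0.89) and E007 (1.04 against 0.69) at stage 15. Usage scores are fitted relative to the gene and on a scale not stated, so the 2 kinds of ratio are unlike measures. A usage ratio nearer 0 therefore does not show a smaller change. Dividing by the totals over listed bins turned the sign of all listed aldoa and pygm bins. These totals come from the listed bins, most of which were higher in MO-injected embryos, so the division does not correct for depth. At stage 10 they were 12088 to 17650 reads in MO-injected and 1105 to 1440 in uninjected embryos. At stage 15 they were 50451 to 83767 and 4922 to 8389. A bin's sign turns only where the bin rose less than these totals, as the aldoa and pygm bins did. The log2 ratios were then -1.88 and -0.27 for aldoa E005 and E007 and -0.65, -0.68 and -0.51 for pygm E024, E025 and E026 at stage 10, and -2.37 and -2.70 for aldoa E006 and E007 and -1.31 and -1.28 for pygm E025 and E026 at stage 15. In all, 79 recomputed bin ratios moved by less than the spread between embryos, 6 moved by more and 9 changed sign. The 79 include the usage ratios of aldoa E007 at both stages and E006 at stage 15. Most of the 79 left out 1 embryo, which with 3 or 4 embryos can hardly shift a mean by that spread. The count is therefore not read as stability. Leaving out 1 embryo gave log2 ratios of 0.21 to 0.90 for aldoa E007 and 0.32 to 1.24 for E006 at stage 15, and 1.84 to 2.19 for pygm E025. At an adjusted p of 0.05, 1 member, got2, was higher at stage 10, gpi being lost. The same threshold took the muscle markers higher at stage 15 from 2 to 1, and left 0 glycolysis genes higher and 0 carriers lower at stage 10. With a 2-fold limit, 0 were higher and 0 lower at stage 10, got2 lying just under 2-fold in the authors' deposited table. The counts over all 8 lists stayed within 1.5 times. At stage 15, adding synonyms brought in pkm2 of the glycolysis list (-1.1, SE 0.180) and ppp1r3c.2 of the glycogen list (1.72, SE 0.191). Both values are the authors' deposited ones. Glycolysis genes lower at stage 15 then went from 4 to 5, and glycogen genes higher from 1 to 2. No paired analysis was possible because the count columns are not tied to embryos and no model was fitted.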
